A study of Mus musculus with 22 samples.

Results

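Axon guidance ligands and receptors were examined in adult mouse choroid plexus (ChP), the tissue whose secretory epithelium makes cerebrospinal fluid (CSF). Members were the protein-coding genes whose symbol belongs to the Slit, Robo, semaphorin, plexin, neuropilin, Eph, ephrin, netrin or Unc5 names, which gave 70 of 33984 genes, or 70 of 20897 protein-coding genes. They comprised 3 Slits, 4 Robo receptors, 4 netrins, 6 Unc5 genes, 20 semaphorins, 11 plexins and neuropilins, 8 ephrins and 14 Eph receptors. *Unc50*, a Golgi membrane protein, and *Unc5cl*, which lacks the extracellular part of the Unc5 receptors, share the name but are not netrin receptors. Without both, the counts of members called in each comparison were the same.

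RNA was sequenced in 14 pools of mice, 2 pools (A and B) for each of 7 groups. In the conditional model, 3-month-old Otx2lox/lox mice (strain label S129) received Cre-Tat, a cell-permeable recombinase, or vehicle into the lateral ventricles only. ChP of the lateral (LV) and the fourth ventricle (4V) was taken 15 days later. Pools held 5 mice labelled Cre-Tat or 4 mice labelled vehicle. All mice of this model carry the floxed allele, and recombination is not restricted by a promoter to ChP cells. In the constitutive model (strain label B6D2), 4V ChP came from mice labelled Otx2 (+/-), in which 1 *Otx2* allele carries GFP and which are called Otx2+/GFP here, from mice labelled Otx2 (+/AA), called Otx2+/AA here, an allele the labels do not spell out further, and from wildtype mice. The Otx2+/GFP and wildtype mice were 3 months old, with 4 and 5 mice pooled. The methods give duplicate samples of each genotype and do not say whether these held different mice. The age of the Otx2+/AA mice is not given in the sources used here. The methods give an equal mix of sexes for the animals, without saying how it fell within pools, and perfusion for the injected mice, the Otx2+/GFP mice and their littermates. They describe LV and 4V ChP as taken separately from the injected mice, so LV and 4V pools may share animals, and the labels do not say which pools would. The models differ in strain, deletion and sequencing run, which cannot be told apart.

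Deposited values were counts of reads per transcript, with 22750019 to 50088408 counts per pool. Levels are given as CPM, read counts scaled to library size with TMM factors over the 14 pools, and as CPM per kb of transcript where genes are compared with each other. *Otx2* was read over its whole transcript, and the exons removed by Cre were not counted apart. Its level was 1015 to 1245 CPM in the pools labelled Cre-Tat of LV and 391 to 476 CPM in their vehicle pools, and 1195 to 1211 CPM against 383 to 392 CPM in 4V. It was 884 to 1034 CPM in Otx2+/GFP, 339 to 353 CPM in Otx2+/AA and 303 to 362 CPM in wildtype pools. The count was thus higher where a knockdown is labelled, although the methods state that Cre-Tat tissue was first tested by qPCR for a lower *Otx2* level. From the same sequencing, the paper reports fewer *Otx2* reads over a single exon in these groups, and lists *Otx2* as downregulated in both models. That exon was not counted apart here, so the whole-transcript levels cannot be set directly against the paper's. *Ttr*, the transthyretin gene that marks ChP epithelium, was lower in each group labelled as a knockdown, with mean levels of 114346 against 183933 CPM in LV (adjusted p = 0.077, edgeR), 66971 against 152578 CPM in 4V (adjusted p = 0.015) and 83299 CPM in Otx2+/GFP against 143560 CPM in wildtype (adjusted p = 0.039). Groups are called by their labels, and directions refer to the labels. The summed level of 10 markers of ChP epithelium was 86880 to 234474 CPM in the 14 pools, while 7 markers of neurons summed to 7.37 to 24.8 CPM, with *Tubb3* or *Rbfox3* at 0 in 5 pools.

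Guidance molecules steer growing axons and migrating cells. Slits bind Robo receptors and mostly repel, netrins attract through DCC and neogenin and repel through Unc5 receptors, secreted class 3 semaphorins act on plexins with neuropilins as coreceptors, and ephrins on one cell bind Eph receptor tyrosine kinases on the next. The same proteins pattern blood vessels and epithelia. The adult ChP is a known source of SLIT2, which enters the CSF and forms a gradient that orients neuroblasts migrating from the subventricular zone.

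The bases just upstream of 4 members are shown first because these genes differed between groups in the results below. *Sema5a* (chr15:32244563-32244809, + strand), *Nrp2* (chr1:62703067-62703284, + strand) and *Sema3e* (chr5:14025026-14025275, + strand) were higher in at least 1 group with a labelled *Otx2* allele change, and *Robo2* (chr16:74411826-74412075, − strand) was lower. Sequences are from RefSeq (GRCm38.p6), read 5′ to 3′, and end before the start of the gene in RefSeq and GENCODE. Capitals mark TAAT on either strand (TAAT or ATTA), the core letters of many homeodomain sites.

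Sema5a: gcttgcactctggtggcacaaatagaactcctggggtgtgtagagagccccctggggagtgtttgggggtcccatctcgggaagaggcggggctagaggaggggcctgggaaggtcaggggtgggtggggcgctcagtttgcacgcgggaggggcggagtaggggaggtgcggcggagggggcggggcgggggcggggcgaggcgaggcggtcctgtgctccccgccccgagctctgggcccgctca
Nrp2: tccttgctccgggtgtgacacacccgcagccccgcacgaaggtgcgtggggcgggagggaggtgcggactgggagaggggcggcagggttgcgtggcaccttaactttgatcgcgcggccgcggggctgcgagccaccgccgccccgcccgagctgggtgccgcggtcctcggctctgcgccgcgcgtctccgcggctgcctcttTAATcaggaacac
Sema3e: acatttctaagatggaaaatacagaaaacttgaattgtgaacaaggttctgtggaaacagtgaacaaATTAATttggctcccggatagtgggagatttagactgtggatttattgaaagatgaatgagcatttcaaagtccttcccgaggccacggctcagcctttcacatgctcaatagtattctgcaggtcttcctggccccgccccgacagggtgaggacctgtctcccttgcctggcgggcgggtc
Robo2: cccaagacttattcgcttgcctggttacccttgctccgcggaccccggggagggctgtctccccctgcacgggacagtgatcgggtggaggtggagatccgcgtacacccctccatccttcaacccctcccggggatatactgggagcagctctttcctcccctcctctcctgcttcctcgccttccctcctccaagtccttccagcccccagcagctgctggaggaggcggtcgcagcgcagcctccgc

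In the bases shown, the letters TAAT occurred once for *Nrp2* and in 2 overlapping copies for *Sema3e*, and were not in those of *Sema5a* or *Robo2*. The table holds 3 windows for *Robo2*, of which the one nearest the GENCODE start is shown, and 2 of the 3 held these letters before their start. For *Nrp2*, the 218 bases shown stop at the GENCODE start, and the whole 250 bases before the RefSeq start held 2 copies. Among all 32851 windows of 250 bases before a start, 54.9% held these letters on either strand, against 37.7% of the 77 windows of members. The windows of members had a median GC content of 64.4% and 15 CpG, against 52.4% and 6 CpG over all windows. *Sema5a* (71.7% GC, 17 CpG) and *Nrp2* (72.5% GC, 28 CpG) were GC-rich, and *Sema3e* had 48% GC and 7 CpG. The longer letters TAATCC, the site preferred by OTX2-type homeodomains, were searched on both strands of windows of 300 bases (250 before and 50 after the start). They were present for 2 of 61 members with a window (3.3%) and 8.1% of all 27025 genes with a window. The members were *Robo3* and *Robo4*, close to each other on chromosome 9, with the first base 113 and 129 bases before the start. *Robo3* was too low to be tested, and *Robo4* did not pass in any comparison.

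Of the 70 members, 30 (42.9%) had a mean level of at least 1 CPM per kb over the 14 pools and 9 (12.9%) reached 10 CPM per kb, against 52.7% and 20.1% of 20897 protein-coding genes. A further 17 members (24.3%) were under 0.1 CPM per kb, among them *Slit1*, which had 0 to 3 counts in each pool, and *Ntn5*, which had 0 to 2 counts. A count of 0 or a few at this depth does not show that a gene is absent. The highest member was *Sema3b*, a secreted class 3 semaphorin, with a mean of 82.5 CPM per kb (44.7 to 114 over the pools), rank 303 among protein-coding genes. Next came *Plxnb2*, a receptor for class 4 semaphorins, with 48.5 CPM per kb (37.5 to 56), and *Nrp1*, a coreceptor for class 3 semaphorins and VEGF, with 43.7 CPM per kb (24.1 to 65). The pool ranges of *Sema3b*, *Plxnb2* and *Nrp1* overlap, so their order is not fixed. In the vehicle pools of LV the mean was 47.9 CPM per kb for *Sema3b* and 50 CPM per kb for *Plxnb2*. *Slit2* followed with 28.4 CPM per kb (13.6 to 47.4).

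The highest members of the other families were *Unc50* (20.7 CPM per kb), the basement membrane netrin *Ntn4* (13.9 CPM per kb), *Epha4* (12.7 CPM per kb), which binds ephrins of both classes, the transmembrane ligand *Efnb1* (3.23 CPM per kb) and *Robo4* (1.85 CPM per kb), a Robo receptor known from endothelium. *Ntn4* and *Epha4* overlapped in their pool ranges (6.69 to 20.2 and 7.39 to 18.3 CPM per kb). Several members were higher in all 6 pools of the constitutive model than in all 8 pools of the conditional model, such as *Nrp1* (200 to 234 CPM against 86.8 to 159 CPM), *Unc5b* (8.18 to 15 CPM against 1.55 to 3.82 CPM) and *Efnb1* (13.6 to 19.3 CPM against 5.39 to 8.9 CPM). *Efnb3* went the other way (0.393 to 1.23 CPM against 1.4 to 2.37 CPM). The share of all genes with such a gap between the models was not counted. The summed level of 10 endothelial markers was higher in the constitutive model, at 417 CPM or more against 171 to 337 CPM. Its part in the levels of these members was not tested. In whole tissue, fewer cells of a type and less RNA per cell cannot be told apart.

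**Figure D1:**
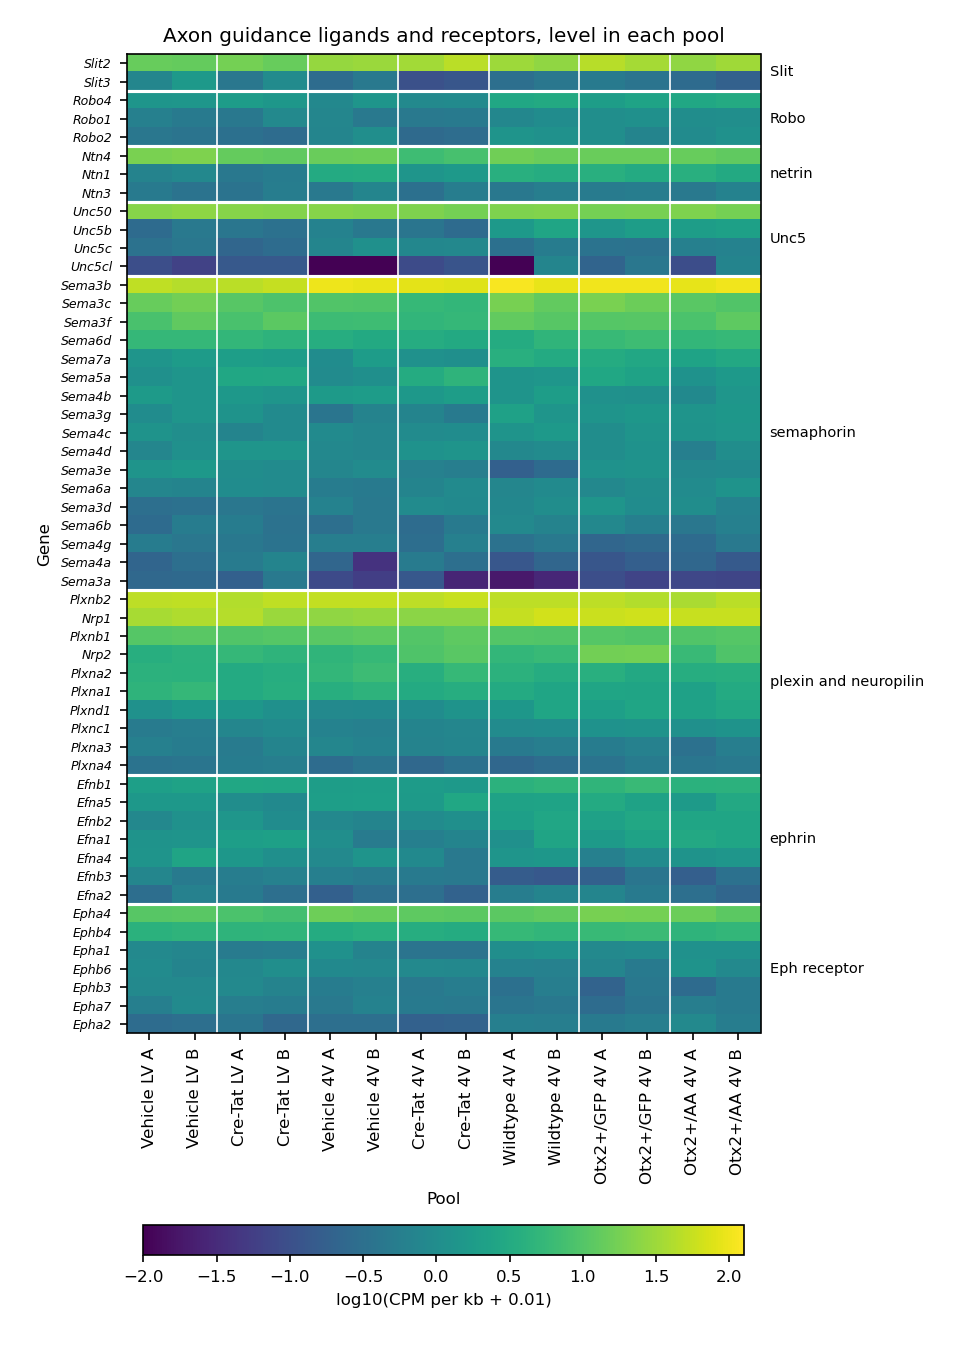
Level of the 53 members with a mean of at least 0.1 CPM per kb (rows, by family, highest first) in each of the 14 pools (columns), as log10 of CPM per kb plus 0.01. The brightest rows are *Sema3b*, *Plxnb2*, *Nrp1* and *Slit2*, and *Sema3e* is darkest in the 2 wildtype pools.

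The first comparison asked what differed in LV ChP between pools labelled Cre-Tat and vehicle. Of 56 members tested, 1 passed the threshold (adjusted p under 0.05, edgeR quasi-likelihood test, adjusted over all genes tested) and was higher, a share of 1.79%, while 3.24% of all 15002 genes tested passed. The median log2 fold change was −0.02 over the members and 0.00 over all genes. The member was *Sema5a* (chr15:32244810-32696341, GRCm38), a transmembrane semaphorin with thrombospondin repeats that can attract or repel axons. Its level was 30.4 and 30.6 CPM in the pools labelled Cre-Tat and 12.1 and 14.8 CPM in the vehicle pools. The groups did not overlap, and the log2 fold change was 1.20 ± 0.18 (SE; adjusted p = 0.0016).

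The other large changes in LV did not pass. *Sema4a* was at 1.54 and 2.14 CPM against 0.629 and 0.957 CPM (log2 fold change 1.23 ± 0.47, adjusted p = 0.22). *Slit3* was at 2.18 and 4.91 CPM against 3.87 and 8.16 CPM, so that the groups overlapped (−0.74 ± 0.39, adjusted p = 0.43). *Ntn4* had 49.6 and 45.6 CPM against 68.2 and 73.6 CPM (−0.55 ± 0.16, adjusted p = 0.078), and *Sema3c* 60.2 and 48.6 CPM against 77.4 and 93.5 CPM (−0.63 ± 0.17, adjusted p = 0.065). DESeq2 called *Ntn4* and *Sema3c* beside *Sema5a*, 3 members in all, and edgeR called 2 members without pool A labelled Cre-Tat, without pool B labelled Cre-Tat or without vehicle pool A. *Slit2* was at 136 and 110 CPM against 108 and 106 CPM (0.23 ± 0.16, adjusted p = 0.64).

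In 4V ChP, 8 of 51 members tested passed between the pools labelled Cre-Tat and vehicle, a share of 15.7% where 10.7% of all 14550 genes passed. Of these, 2 were higher (3.92% of members, 5.7% of all genes) and 6 were lower (11.8% of members, 4.98% of all genes). The median log2 fold change was −0.18 over the members and 0.01 over all genes. Lower were the ligands *Ntn1*, *Ntn4*, *Slit3* and *Sema3c* and the receptors *Robo2* and *Epha1*. Higher were *Sema5a* and the receptor *Nrp2*. The calls made up 2 of 3 netrins tested, 1 of 2 Slits, 1 of 3 Robo receptors, 1 of 7 Eph receptors, 2 of 16 semaphorins, 1 of 10 plexins and neuropilins, and none of 7 ephrins or 3 Unc5 genes.

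*Sema5a* was at 36.3 and 50.6 CPM in the 4V pools labelled Cre-Tat and at 10.1 and 11.9 CPM in the vehicle pools. Its log2 fold change was 2.00 ± 0.18, or 3.99-fold (adjusted p = 9.6e-07), with no overlap between groups. *Nrp2* (chr1:62703285-62818695), the coreceptor that pairs with plexins for SEMA3C and SEMA3F, was at 62.1 and 74.7 CPM against 32.6 and 36.8 CPM (0.99 ± 0.14, adjusted p = 0.00016). Its ligand *Sema3c* (chr5:17574281-17730268) was lower, at 30.8 and 28.6 CPM against 53.7 and 51.5 CPM (−0.82 ± 0.14, adjusted p = 0.00057).

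Both netrins with appreciable levels were lower. *Ntn4* (chr10:93640681-93747207) was at 24.4 and 29.2 CPM against 52.6 and 54.6 CPM (−0.99 ± 0.14, adjusted p = 0.00014). *Ntn1* (chr11:68209364-68400823), the classic floor plate netrin, was at 7.72 and 9.18 CPM against 18.7 and 19.2 CPM (−1.16 ± 0.18, adjusted p = 0.00028). The pools of the groups stood well apart for both genes. Of their receptors, *Dcc* had at most 0.243 CPM in any of the 14 pools, and neogenin (*Neo1*) had 71.7 to 102 CPM and a log2 fold change of −0.16 ± 0.13 here (adjusted p = 0.55).

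*Robo2* (chr16:73891839-74411825), a Slit receptor, was at 1.51 and 1.7 CPM in the pools labelled Cre-Tat and at 4.41 and 6.26 CPM in the vehicle pools (−1.71 ± 0.31, adjusted p = 0.0014). *Slit3* (chr11:35121224-35708507) was at 0.486 and 0.599 CPM against 1.4 and 2.3 CPM (−1.72 ± 0.49, adjusted p = 0.028), from 9 and 12 against 19 and 25 reads. *Epha1* (chr6:42358487-42373268) was at 1.19 and 1.2 CPM against 3.82 and 2.21 CPM (−1.35 ± 0.38, adjusted p = 0.03), and 7.2% of its exonic bases overlap *Zyx* on the other strand. *Slit3* and *Epha1* rested on few reads, and their groups did not overlap. DESeq2 did not call either (adjusted p = 0.17 for both). *Slit3* was not called without pool A labelled Cre-Tat (adjusted p = 0.11), without pool B labelled Cre-Tat (0.066) or without vehicle pool B (0.31), and *Epha1* was not called without pool B labelled Cre-Tat (0.055) or vehicle pool A (0.49). *Slit2*, the abundant Slit, was at 260 and 368 CPM against 220 and 238 CPM (0.46 ± 0.16, adjusted p = 0.077).

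**Figure D2:**
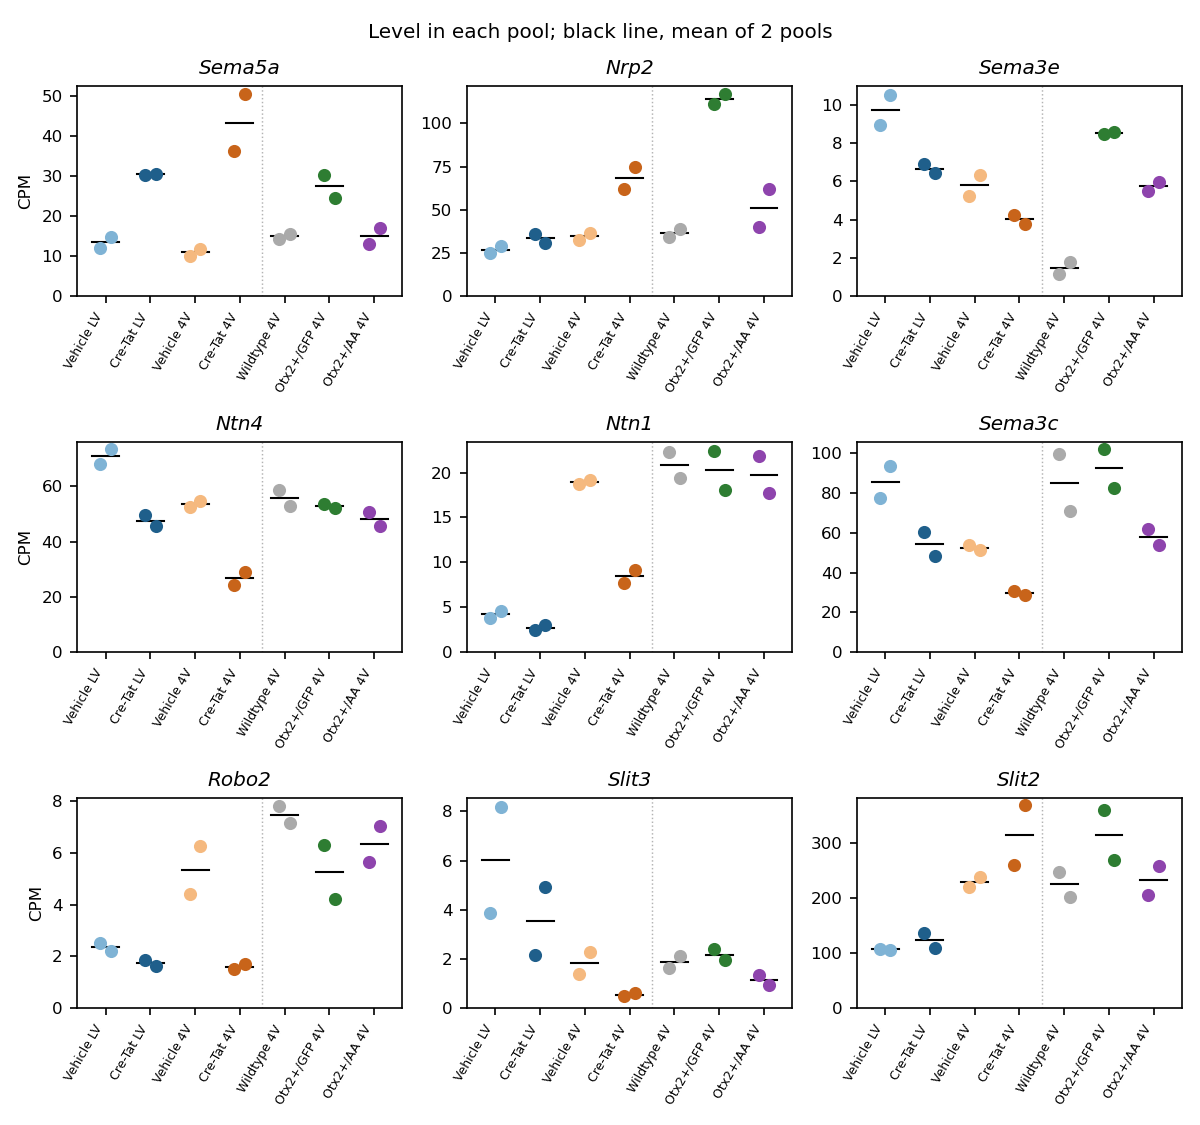
Level in CPM (vertical axis, from 0) of 9 members in each pool, 2 points per group, with the group mean as a line; the dotted line separates the models. *Sema5a* is higher in both groups labelled Cre-Tat and in Otx2+/GFP than in their control pools, and *Ntn1* is lower in all 4 LV pools than in any 4V pool.

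Markers of other cells moved with the label in 4V. Of 10 macrophage markers 8 were higher in the pools labelled Cre-Tat, and their summed level was 112 to 159 CPM against 67.9 to 69.5 CPM in the vehicle pools. The 5 ependymal markers summed to 348 to 362 CPM against 188 to 220 CPM, with 2 of 4 tested called higher. Of the 10 epithelial markers 9 were called lower, *Otx2* being the exception, with sums of 86880 to 98412 CPM against 184520 to 217014 CPM. In LV, 5 of 10 macrophage markers were higher (148 to 177 CPM against 85.1 to 98.4 CPM) and 3 of 4 ependymal markers tested were higher (273 to 299 CPM against 166 to 172 CPM). Epithelial markers in LV summed to 125022 to 163832 CPM against 225198 to 234474 CPM. Of these 10, edgeR called 4 lower and 1 higher, and DESeq2 called 8. In both ventricles, *Ttr* alone made up most of the epithelial sums. The paper calls *Ttr* a known direct target of OTX2, so these sums do not measure epithelial cell content alone. Single markers of other lists were called in both ventricles, *Col1a2* (higher) and *Pdgfra* (lower) of fibroblasts and *Aqp4* (higher) of astrocytes, and *Snap25* (higher, LV), *Syt1* (lower, 4V) and *Gfap* (higher, 4V) in 1 ventricle. The part of these lists in the levels of the guidance genes was not tested. Of 10 endothelial markers 1 was called in 4V, and of 9 mural markers 0 were called by edgeR or DESeq2 or had an unadjusted p under 0.05 (0 genes).

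The test of the difference between ventricles in the response to the label (an interaction over the 8 pools of the conditional model) called none of 57 members and 1 of 15565 genes (0.00642%) in edgeR. At an unadjusted p under 0.05 there were 5 members, and DESeq2 called 0. For *Sema5a*, the log2 fold change in 4V exceeded that in LV by 0.79 ± 0.26, with an adjusted p of 1. For *Robo2* the difference was −1.30 ± 0.44 and for *Nrp2* 0.65 ± 0.22, both with an adjusted p of 1. A difference between the ventricles in response is therefore not shown for any of the 57 members, and sameness is not shown either.

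In 4V ChP of the constitutive model, 3 of 54 members tested passed between Otx2+/GFP and wildtype, all of them higher (5.56% of members, where 3.53% of all 14573 genes passed). The median log2 fold change was −0.01 over the members and 0.00 over all genes. *Nrp2* was at 111 and 117 CPM against 34.5 and 38.6 CPM in wildtype (1.64 ± 0.12, or 3.12-fold, adjusted p = 0.00041). *Sema5a* was at 30.3 and 24.7 CPM against 14.4 and 15.5 CPM (0.88 ± 0.15, adjusted p = 0.019). The groups did not overlap for either gene. DESeq2 called 4 members, the same 3 and *Epha4*. Without Otx2+/GFP pool A, the adjusted p of *Sema5a* was 0.062 and 2 members passed. Without Otx2+/GFP pool B 5 passed, and without wildtype pool B 6.

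*Sema3e* (chr5:14025276-14256689), which binds Plexin-D1 without a neuropilin, was at 8.48 and 8.56 CPM in Otx2+/GFP and at 1.15 and 1.8 CPM in wildtype (2.53 ± 0.26, or 5.78-fold, adjusted p = 0.0015), from 167 and 167 against 22 and 32 reads. The wildtype pools were the lowest of all 14 pools for this gene, the vehicle pools of 4V having 5.22 and 6.35 CPM. Its receptor *Plxnd1* was at 14 and 17.5 CPM against 10.3 and 17.9 CPM, with overlapping groups. *Efnb3* had the third largest change among members with a mean above 10 normalized counts, at 0.559 and 1.23 CPM against 0.471 and 0.393 CPM, and did not pass (1.04 ± 0.57, adjusted p = 0.39). The netrins did not pass, with *Ntn4* at 53.8 and 52.2 CPM against 58.6 and 52.9 CPM (−0.07 ± 0.11, adjusted p = 0.79) and *Ntn1* at 22.4 and 18.1 CPM against 22.3 and 19.4 CPM (−0.05 ± 0.16, adjusted p = 0.92). *Slit2* was at 359 and 269 CPM against 247 and 202 CPM (0.48 ± 0.16, adjusted p = 0.16).

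Fibroblast markers summed over 7 genes to 1002 to 1115 CPM in Otx2+/GFP against 725 to 801 CPM in wildtype, with 2 of 6 tested called higher. The 6 astrocyte and oligodendrocyte markers summed to 103 to 131 CPM against 73.5 to 76.7 CPM, and 1 of 4 tested, the water channel gene *Aqp4*, was called higher (1.74 ± 0.16, adjusted p = 0.0011). Macrophage markers summed to 134 to 142 CPM against 126 to 128 CPM with 1 of 10 called higher. Epithelial markers summed to 126729 to 133398 CPM against 188895 to 200217 CPM, with 3 of 10 called lower and 1 called higher. *Ttr* alone made up most of these epithelial sums. The log2 fold change was below 0 for 7 epithelial markers and above 0 for 3. The part of these lists in the levels of *Nrp2*, *Sema5a* and *Sema3e* was not tested.

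Between Otx2+/AA and wildtype, 1 of 53 members passed (1.89%), beside 0.345% of all 14494 genes. It was *Sema3e*, at 5.49 and 5.98 CPM against 1.15 and 1.8 CPM (1.96 ± 0.29, or 3.89-fold, adjusted p = 0.014). This comparison shares its wildtype pools with that of Otx2+/GFP. Without Otx2+/AA pool A the adjusted p was 0.051, and no member passed (0 of those tested by edgeR). Without wildtype pool B 6 members passed, namely *Efna1*, *Plxnd1*, *Sema3c*, *Sema6d* and *Unc5cl* beside *Sema3e*. At an unadjusted p under 0.05 there were 8 members, and DESeq2 called 1. *Sema5a* was at 13.1 and 17.2 CPM, and overlapped with wildtype (0.02 ± 0.18, adjusted p = 0.99). *Nrp2* was at 39.9 and 62.3 CPM, both above wildtype, and did not pass (0.48 ± 0.18, adjusted p = 0.41). *Efna2* was at 0.657 and 0.464 CPM against 1.15 and 1.46 CPM (−1.20 ± 0.48, adjusted p = 0.43) and *Efnb3* at 0.516 and 1.03 CPM (0.82 ± 0.59, adjusted p = 0.8). The median over the members was −0.07 and over all genes −0.01 on the log2 scale. Of 56 marker genes tested 0 were called by edgeR or DESeq2, and 13 had an unadjusted p under 0.05.

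**Figure D3:**
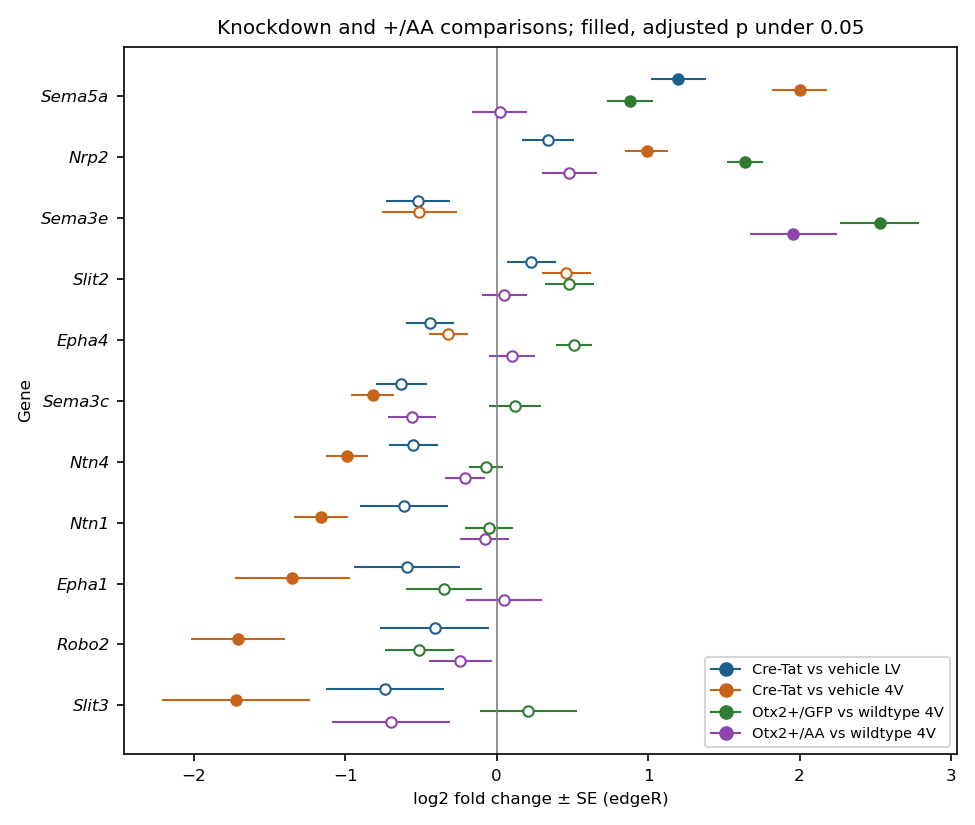
Log2 fold change with SE (horizontal axis) of 11 members in 4 comparisons with a labelled change of *Otx2*, filled where the adjusted p was under 0.05. *Sema5a* is filled to the right of 0 in both Cre-Tat comparisons and in Otx2+/GFP, while the netrins, *Sema3c*, *Robo2*, *Slit3* and *Epha1* are filled to the left only for Cre-Tat in 4V; whether models differ is tested for each gene in the text.

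The response to the knockdown label differed between the models in 4V for 4 of 54 members tested (7.41%), where 1.64% of all 15327 genes passed this test over 8 pools. The difference is the Otx2+/GFP log2 fold change minus that for Cre-Tat, and was above 0 in the 4 that edgeR called. It was 3.05 ± 0.35 for *Sema3e* (adjusted p = 0.0011), 1.12 ± 0.23 for *Ntn1* (adjusted p = 0.026), 0.93 ± 0.18 for *Ntn4* (adjusted p = 0.02) and 0.84 ± 0.17 for *Epha4* (adjusted p = 0.026). For *Epha4*, neither comparison passed on its own in edgeR, and DESeq2 called that of Otx2+/GFP: 115 and 109 CPM in Otx2+/GFP against 73.7 and 83.7 CPM in wildtype (0.51 ± 0.12, adjusted p = 0.055), and 76.4 and 74.1 CPM labelled Cre-Tat against 99 and 89.1 CPM in vehicle (−0.32 ± 0.13, adjusted p = 0.16). Only *Sema3e* of the 4 passed with each of the 8 pools left out in turn. *Ntn1* and *Ntn4* passed in 2 of these 8 fits each and *Epha4* in 1. The number of members that passed was 1 without vehicle pool A, vehicle pool B or wildtype pool B, and 2 without pool A labelled Cre-Tat, Otx2+/GFP pool A or wildtype pool A. For *Nrp2* (0.66 ± 0.19, adjusted p = 0.12) and *Sema5a* (−1.10 ± 0.26, adjusted p = 0.051) the difference did not pass in edgeR. DESeq2 called 6 members, the 4 above with *Sema3c* (0.95 ± 0.23 and adjusted p = 0.059 in edgeR) and *Sema5a*, whose difference was below 0. Of the marker genes, edgeR called 7 of 57 tested, among them *Ptprc* and *C1qa* of macrophages (−1.25 and −1.20) and *Htr2c* and *Kcne2* of epithelium (0.95 and 1.14). Their part in the differences of the guidance genes was not tested.

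LV and 4V ChP were then compared in the vehicle pools alone. Of 53 members tested 13 passed (24.5%), where 7.44% of all 14561 genes passed. In LV, 6 were higher (11.3% of members, 3.46% of all genes) and 7 were lower (13.2% of members, 3.98% of all genes). The median log2 difference was 0.14 over the members and 0.01 over all genes. These vehicle pools are also the controls of the Cre-Tat comparisons. DESeq2 called 10 of the 13, not *Robo2* (adjusted p = 0.089), *Sema3f* (0.071) or *Sema3g* (0.15). Without 4V vehicle pool B 4 members passed, without 4V vehicle pool A 8 and without LV vehicle pool B 7.

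Lower in LV were the ligands *Slit2*, *Ntn1* and *Sema3b* and the receptors *Robo2*, *Unc5c*, *Epha4* and *Plxna2*. *Ntn1* was at 3.82 and 4.58 CPM in LV and at 18.7 and 19.2 CPM in 4V, 4.6-fold lower (−2.20 ± 0.18, adjusted p = 1.4e-05). *Slit2* (chr5:47983138-48307733) was at 108 and 106 CPM against 220 and 238 CPM (−1.13 ± 0.12, adjusted p = 6.4e-05). *Sema3b* (chr9:107597674-107609229) was at 163 and 143 CPM against 312 and 290 CPM (−1.01 ± 0.13, adjusted p = 0.00031). It had the highest mean CPM per kb over the 14 pools, while *Plxnb2* was higher in CPM in each of these vehicle pools. For all 3 ligands the pools of LV lay below those of 4V, and the call held with each pool left out in turn.

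*Unc5c*, a netrin receptor, was at 3.29 and 3.93 CPM in LV against 7.06 and 10.8 CPM in 4V (−1.32 ± 0.26, adjusted p = 0.007). *Robo2* was at 2.52 and 2.22 CPM against 4.41 and 6.26 CPM (−1.19 ± 0.29, adjusted p = 0.027). Smaller differences were found for *Plxna2*, a plexin for class 3 and class 6 semaphorins, at 47.3 and 45.5 CPM against 57.5 and 70.2 CPM (−0.49 ± 0.13, adjusted p = 0.035), and for *Epha4* at 67.8 and 71.4 CPM against 99 and 89.1 CPM (−0.47 ± 0.12, adjusted p = 0.031). Without 4V vehicle pool B, these 4 did not pass (adjusted p = 0.12, 0.25, 0.31 and 0.078). *Epha4* did not pass without any one of the 4 pools, nor *Plxna2* without LV vehicle pool B (0.12).

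Higher in LV were *Slit3*, *Sema3c*, *Sema3f*, *Sema3g*, *Sema6d* and the receptor *Nrp1*. *Slit3* was at 3.87 and 8.16 CPM in LV against 1.4 and 2.3 CPM in 4V (1.69 ± 0.38, adjusted p = 0.018). *Slit2* and *Slit3* therefore went opposite ways in these pools, with *Slit3* read from 80 and 162 against 19 and 25 reads. *Sema3c* was at 77.4 and 93.5 CPM against 53.7 and 51.5 CPM (0.67 ± 0.13, adjusted p = 0.0058). *Sema6d*, a transmembrane semaphorin, was at 33.5 and 33.9 CPM against 22 and 19.2 CPM (0.68 ± 0.14, adjusted p = 0.0092).

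*Nrp1* was at 133 and 145 CPM against 93.6 and 102 CPM (0.47 ± 0.12, adjusted p = 0.027). *Sema3f* was at 28.5 and 42 CPM against 22.3 and 23.1 CPM (0.60 ± 0.17, adjusted p = 0.046) and *Sema3g* at 4.5 and 6.1 CPM against 1.76 and 3.04 CPM (1.13 ± 0.32, adjusted p = 0.046). These 3 did not pass without 4V vehicle pool A (0.14, 0.15 and 0.24), without 4V vehicle pool B (0.1, 0.2 and 0.054) or without LV vehicle pool B (0.12, 0.42 and 0.16). *Slit3* did not pass without 4V vehicle pool A (0.11) or LV vehicle pool B (0.12), and *Sema3c* and *Sema6d* did not pass without 4V vehicle pool B (0.072 and 0.11). With total counts in place of TMM, *Nrp1*, *Sema3f* and *Sema3g* did not pass (adjusted p = 0.19, 0.16 and 0.09). *Sema3a* at 1.4 and 1.46 CPM against 0.441 and 0.276 CPM (1.92 ± 0.56, adjusted p = 0.056) and *Ephb2* at 1.31 and 0.705 CPM against 0.22 and 0.368 CPM (1.76 ± 0.68, adjusted p = 0.14) also had large differences that did not pass.

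Endothelial markers were higher in LV, with 4 of 10 called and a sum of 265 to 310 CPM against 174 to 194 CPM in 4V. Of 10 epithelial markers 0 were called by edgeR or DESeq2 and 2 had an unadjusted p under 0.05, and their sums were 225198 to 234474 CPM in LV against 184520 to 217014 CPM in 4V. Of 6 fibroblast markers tested 1 was called higher in LV, with sums over the list of 597 to 633 CPM against 492 to 515 CPM, and of 10 macrophage markers 1 was called higher, with 85.1 to 98.4 CPM against 67.9 to 69.5 CPM. Of 4 ependymal markers tested 1 was called lower in LV. Of 9 mural markers 0 were called by edgeR or DESeq2 and 4 had an unadjusted p under 0.05. The part of these cell types in the levels of the guidance genes was not tested.

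**Figure D4:**
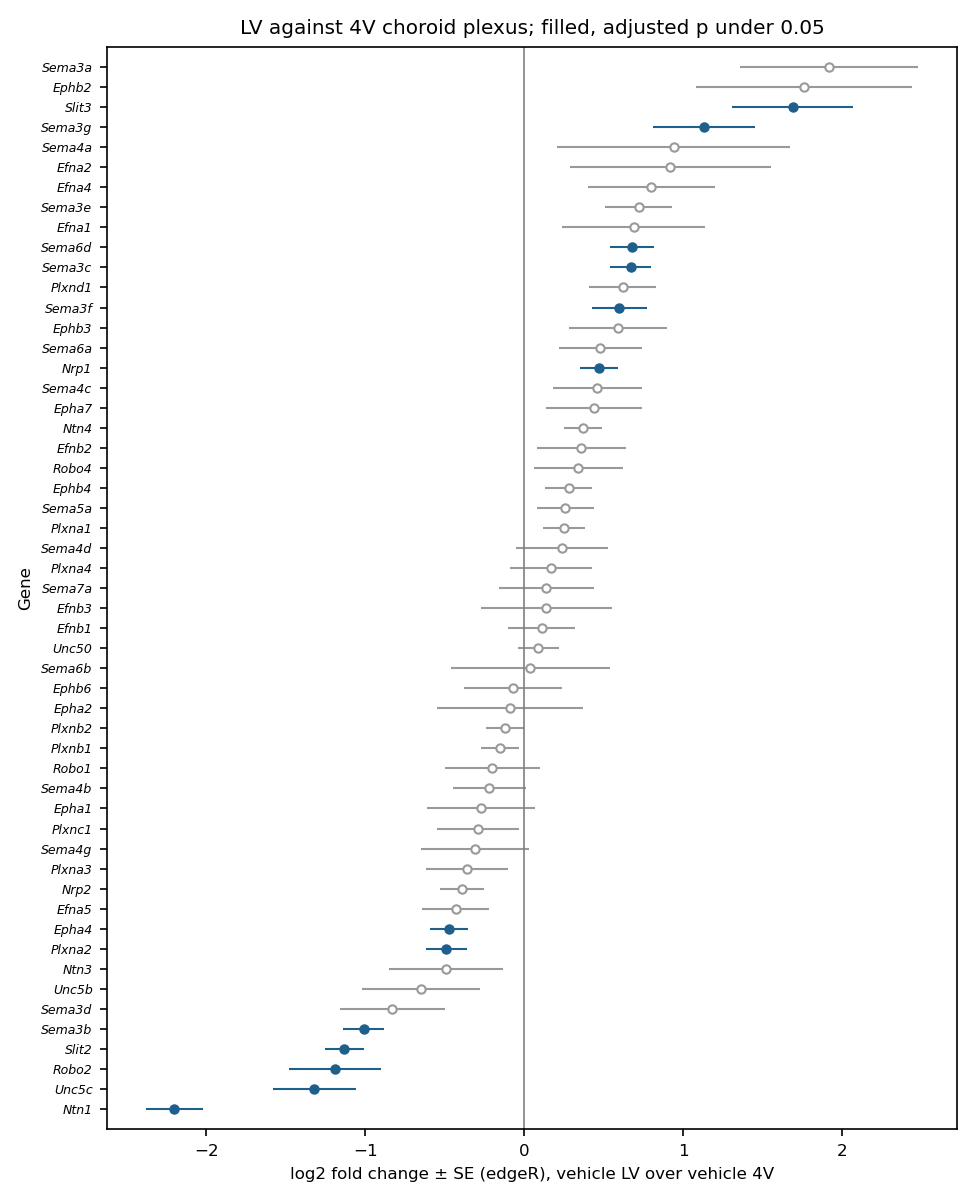
Log2 fold change with SE (horizontal axis, vehicle LV over vehicle 4V) of the 53 members tested, sorted by size and filled where the adjusted p was under 0.05. The filled points run from *Ntn1* at −2.20 to *Slit3* at 1.69, with 7 to the left of 0 and 6 to the right.

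The list of partners was drawn up with earlier results of these data known. Its counts are therefore not independent support, also where set beside the share of all genes. It held 63 genes, intracellular and extracellular partners of these pathways. Of those tested, 5 of 58 passed in LV (beside 3.24% of all genes), 9 of 56 in 4V (10.7%), 6 of 54 in Otx2+/GFP (3.53%), 0 of 54 in Otx2+/AA (0.345%) and 5 of 55 between the ventricles (7.44%). DESeq2 called 5, 5, 7, 0 and 5 of them, and 4 had an unadjusted p under 0.05 in Otx2+/AA. Of the 7 Slit-Robo partners (*Srgap1*, *Srgap2*, *Srgap3*, *Gpc1*, *Enah*, *Abl1* and *Abl2*) 0 were called by edgeR or DESeq2 in any of these comparisons, and at most 2 had an unadjusted p under 0.05.

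Of the partners, 4 passed in the same direction in both Cre-Tat comparisons and in Otx2+/GFP. Among them, *Flrt1*, *Chn2* and *Kalrn* are in the paper's own list of genes changed in all of these comparisons. The partner list was drawn up with earlier results of these data known, so their passing is not independent support. The share of all genes that passed in all of these comparisons was not counted. *Flrt1*, of the FLRT ligands of Unc5 receptors, was at 11.5 and 19.9 CPM labelled Cre-Tat in 4V against 2.94 and 2.48 CPM in vehicle (2.53 ± 0.27, adjusted p = 6.8e-06). *Pak1*, a kinase activated by Rac and Cdc42, was at 13.8 and 13 CPM against 4.12 and 3.5 CPM (1.81 ± 0.21, adjusted p = 1.9e-05). *Chn2*, a Rac GTPase-activating protein, was at 20 and 22.9 CPM against 11 and 11.1 CPM (0.97 ± 0.17, adjusted p = 0.001). *Kalrn*, a Rac exchange factor that acts downstream of Eph receptors, was lower, at 72.6 and 77.5 CPM against 177 and 165 CPM (−1.18 ± 0.13, adjusted p = 1.2e-05).

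In LV, *Flrt1*, *Pak1*, *Chn2* and *Kalrn* had log2 fold changes of 1.58 ± 0.22, 1.52 ± 0.32, 1.39 ± 0.22 and −0.92 ± 0.17, in that order (adjusted p = 0.0011, 0.018, 0.0036 and 0.0083). In Otx2+/GFP these were 1.24 ± 0.19, 1.69 ± 0.27, 1.43 ± 0.18 and −0.65 ± 0.13 (adjusted p = 0.0093, 0.013, 0.004 and 0.032). Between the ventricles, *Tiam1*, a Rac exchange factor, was higher in LV, at 19.4 and 25 CPM against 6.39 and 9.29 CPM (1.48 ± 0.20, adjusted p = 0.00049). *Dscaml1*, a relative of the netrin receptor DSCAM, was at 3.82 and 4.08 CPM against 0.735 and 0.644 CPM (2.47 ± 0.38, adjusted p = 0.0016).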

How the data were processed

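RNA of 14 pools was sequenced by the authors in 50-base reads, and they deposited counts of reads per Ensembl transcript without normalization. Libraries were made after Ribo-Zero depletion with a strand-specific kit per the labels, and from PolyA+ RNA per the paper. The submitters' processing notes name bcl2fastq 1.8.4, Bowtie 0.12.9, SAMtools, HTSeq 0.5.3, DESeq 1.8.3 and mm10, and the strand used for counting is not given in the sources used here. Of 95533 transcripts, 82807 matched GENCODE release vM21 and held 89.5% of the counts; the other 12726 were left out. The transcript with the highest count summed over the 22 files stood for its gene.

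In the conditional model, 14 of 16 files carry another library number than their sample does. Files were joined by library number: the 2 technical runs of a pool then had a chi-square of 1.005 to 1.036 per degree of freedom, against 22.784 to 40.828 as attached. Both runs were summed. File totals were 11253762 to 43790479 counts, which limit counting error alone.

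Comparisons used edgeR 4.0.16 in R 4.3.3 (filterByExpr, TMM, quasi-likelihood test) on the pools of each comparison, with p-values adjusted by Benjamini-Hochberg across every gene in the test and a threshold of 0.05. SE is the log2 fold change divided by the square root of F. The biological coefficient of variation was 0.114 to 0.152. Each group holds 2 pools, labelled as biological replicates, so p-values measure the spread between pools. In the constitutive model, whether both pools of a group held different mice is not stated. The spread there may not be that between animals. An exact permutation test of 2 against 2 cannot go below p = 0.333. DESeq2 1.42.0, its size factors, total counts, no filter, a block for pool letter, sums over transcripts, 1 fit for each sequencing run, files as attached and each pool left out were alternatives. The procedure was tested on simulated data. Tables and plots were made in Python with pandas and matplotlib.

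The members and gene lists were chosen with earlier results of these data known. Named genes are all members past the threshold, the highest member of each family, *Slit1*, *Slit2*, *Slit3*, *Sema5a*, and the 3 largest changes with a mean above 10 normalized counts in each comparison of 2 groups; others were chosen after their values were seen. Partner genes and cell markers were fixed lists, drawn up with those earlier results known. Promoter windows matched 61 of the 70 members in the RefSeq table.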

Additional observations from a re-analysis of the deposited data

Results flagged for a closer look

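For 4 genes, the response to the knockdown label in 4V ChP differed between the models, and the difference itself was tested as an interaction in edgeR over 8 pools. The Otx2+/GFP log2 fold change minus that for Cre-Tat was 3.05 for *Sema3e*, 1.12 for *Ntn1*, 0.93 for *Ntn4* and 0.84 for *Epha4*. Strain, deletion and sequencing run differ with the model and cannot be told apart. *Sema3e* was listed at 22 and 32 reads in the wildtype pools that both constitutive comparisons share as their control.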

How the results depend on the processing

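Precision is limited by the 2 pools of each group, and by few reads for *Slit3* and *Epha1*. Of the 30 calls of a member in a comparison, all 30 kept direction and threshold with DESeq2 size factors in edgeR, without a filter and with the replicate block; 25 did with DESeq2, 26 with total counts and 23 with sums over transcripts. With all groups of a run in 1 fit 20 of 26 did, and no call reversed under these alternatives. The number of members called in LV was 3 with DESeq2, 3 with all groups of the run in 1 fit, 3 without a filter and 2 with sums over transcripts. Without a filter it was 2 in Otx2+/AA and 8 for the interaction with model, and between the ventricles it was 8 with all groups in 1 fit. For counts of members under alternatives, here, above and below, the share of all genes called under the same setting is not given. Such counts describe how calls depend on processing and are not read as a result about the members.

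Leaving out each pool in turn gave 1 to 2 members called in LV, 7 to 8 in 4V, 2 to 6 in Otx2+/GFP, 0 to 6 in Otx2+/AA, 4 to 15 in the comparison of ventricles, 0 in each fit of the interaction with ventricle, and 1 to 5 for the interaction with model.

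The pool letters do not pair the samples by a stated litter or day: the correlations of deviations were −0.128 in LV, 0.15 in 4V, 0.359 in Otx2+/GFP, 0.077 in Otx2+/AA and 0.074 between ventricles. With the letter as a block, 15 members were called in 4V, 8 in Otx2+/GFP and 3 in Otx2+/AA, 1 in LV, 18 between the ventricles, 0 for the interaction with ventricle and 5 for that with model. Whether the block raised the calls over all genes alike is not given here. With crossed letters, added after seeing the data, 4 members and 1012 genes were called in LV.

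With the files as attached, a join under which the technical runs of a pool differ, 34 members were called in LV, 40 in 4V, 15 for the interaction with ventricle and 19 for that with model. The share of all genes called under this join is not given, so these counts are not read as a result about the members. The log2 fold change was then reversed for *Sema5a* in LV (−0.21) and, in 4V, for *Epha1* (0.41), *Slit3* (2.41), *Ntn4* (0.62), *Nrp2* (−1.04), *Sema3c* (0.92) and *Sema5a* (−0.69). Between the ventricles it was reversed for *Epha4* (0.12), *Slit3* (−0.45), *Nrp1* (−0.03), *Sema3b* (0.13) and *Sema3f* (−0.04), and for the interaction with model for *Ntn4* (−0.68). The cause of the shifts under the other alternatives was not tested.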
